A study of Mus musculus with 9 samples.

Results

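The genes described here are 8 genes of the route by which cells make cholesterol: Hmgcs1, Idi1, Fdft1, Sqle, Lss, Cyp51, Dhcr7 and Insig1. They were chosen by symbol from a table of 22337 genes, and each symbol matched 1 row. RNA-seq was carried out on mouse retina at P28 in 3 groups of 3 libraries. The WT group was C57 BL/6J mice that received no injection. The NS and MSC-EVs groups were rd10 mice, which carry a missense mutation in Pde6b, the gene of a rod phosphodiesterase subunit, and lose their rods. Normal saline (NS) or extracellular vesicles of human umbilical cord mesenchymal stem cells (MSC-EVs) were given at P14 and P21 as 1 μL per eye, into the vitreous by the study's design, although 1 label names an intravenous route. Genotype, injection and the source of the animals all differed between WT and the rd10 groups and cannot be told apart. The labels number the retinas of a group without saying that each came from a separate animal, so the p-values measure the spread between these libraries only.

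Cholesterol is built from acetyl-CoA by a long chain of enzymes that runs through mevalonate, isoprenoid units, squalene and lanosterol. In most cells the genes of this chain are switched on together by the transcription factor SREBP2, which is held back in the endoplasmic reticulum when sterols are plentiful. The retina both makes its own cholesterol and takes it up from the blood, and photoreceptor outer segments and glia handle it in different ways.

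Total estimated counts were 19491721 to 28545647 in 8 libraries and 62532357 in MSC-EVs replicate 3. The 8 genes were well covered, with 490 to 8391 estimated counts per gene and library. Genes of the Y chromosome gave 4379 and 4421 counts in MSC-EVs replicates 1 and 2 and 7 to 23 counts in the other libraries. The labels give no sex. In comparisons with the MSC-EVs group a difference of sex cannot be fully told apart from the vesicles. Pde6b, the mutated gene, was at 2414 to 2605 CPM in WT and 450 to 712 CPM in the rd10 libraries. CPM is a gene's count relative to its library's total, scaled between libraries by edgeR's TMM.

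Per unit of transcript length (FPKM), Hmgcs1 was the most and Lss the least expressed of the 8 genes in every group. In WT the means were 54.1 for Hmgcs1, 36.3 for Insig1, 34.2 for Fdft1, 25.5 for Sqle, 22.9 for Idi1, 20.3 for Cyp51, 18.5 for Dhcr7 and 8.78 for Lss. The ranges of the 3 WT libraries did not overlap between neighbours in this order, except for Sqle with Idi1, Idi1 with Cyp51, and Cyp51 with Dhcr7. The upper part of the order, Hmgcs1, Insig1, Fdft1 and Sqle, was kept in the NS group, where Insig1 and Fdft1 overlapped. In the MSC-EVs group Insig1 (19.3 to 28.6 FPKM) overlapped both Fdft1 (21.9 to 25.8 FPKM) and Sqle (20.1 to 22.3 FPKM).

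Promoter sequences from RefSeq (GRCm38.p6, windows of 300 bases around a gene start) were held for 6 of the 8 genes, Fdft1 and Sqle not being among them. They were searched on both strands for 3 motifs known from sterol-regulated genes: the core of the sterol regulatory element bound by SREBP (TCACNCCAC), the NF-Y box (CCAAT) and the GC box bound by Sp1 (GGGCGG). Among these genes the sterol element was found once, in Hmgcs1. It is held by 1.24% of the 32851 windows searched, which do not cover every chromosome. Each of the 6 genes had an NF-Y box in a window, against 41.1% of the 27025 genes searched. The stretches below are shown because they hold the motifs that these co-regulated genes are known for. Each is read 5′ to 3′ on the gene's strand, with the motif in capitals (ATTGG is CCAAT on the other strand), and the NF-Y box shown is the one nearest before the RefSeq start.
Hmgcs1, sterol element, chr13:119690204-119690232, plus strand: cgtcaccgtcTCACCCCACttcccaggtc
Hmgcs1, NF-Y box, chr13:119690296-119690320, plus strand: cccgcctctcATTGGctgaaagcgg
Idi1, NF-Y box, chr13:8885582-8885606, plus strand: ccaaggtgccATTGGctggcgaccg
Lss, NF-Y box, chr10:76531533-76531557, plus strand: tgatgctctgATTGGccgagctcgc
Cyp51, NF-Y box, chr5:4104712-4104736, minus strand: ctgtccgccaCCAATctggtcctga
Dhcr7, NF-Y box, chr7:143830155-143830179, plus strand: tccacttccgATTGGtcgtctgtga
Insig1, NF-Y box, chr5:28071186-28071210, plus strand: ccctcctcccATTGGctccggcggc

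Counted from the RefSeq start behind each window, the sterol element of Hmgcs1 starts at position -137. On the same count the NF-Y boxes shown start at -14 in Idi1, -29 in Cyp51, -45 in Hmgcs1, -49 in Dhcr7, -62 in Lss and -216 in Insig1. Dhcr7 has 3 windows, and its NF-Y boxes lie in 1 of them, at an alternative start. The starts differ from the GENCODE gene coordinates given further on. Counted from the GENCODE start the boxes shown of Cyp51, Idi1 and Dhcr7 lie inside the gene, at 20, 91 and 7020, and those of Lss, Hmgcs1 and Insig1 before it, at -45, -73 and -167. A GC box was also found in all 6 genes, against 38.2% of the genes searched. Among 20 other enzymes and regulators of the route with a window, 0 held the sterol element, 14 an NF-Y box and 16 a GC box. A match is a stretch of letters and not a measured binding site. Only exact matches inside these windows were counted, so variant forms and sites further from the start were missed. A count of 0 does not show that a gene lacks the element.

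The 8 genes are protein coding and lie apart in the genome (GRCm38, GENCODE M21). Hmgcs1 (chr13:119690379-119708260) and Idi1 (chr13:8885501-8892451) share a chromosome, as do Cyp51 (chr5:4081145-4104746) and Insig1 (chr5:28071363-28078662). Fdft1 is at chr14:63145150-63179578, Sqle at chr15:59315077-59331192, Lss at chr10:76531588-76557138 and Dhcr7 at chr7:143823145-143848410. Cyp51 and Fdft1 are on the minus strand and the other 6 on the plus strand.

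The first comparison asked how the degenerating rd10 retina, injected with saline, differed from WT. All 8 genes were lower in NS than in WT, by 22.4% to 41.1%, and none of the 8 had overlapping groups. At an adjusted p under 0.05, 30.1% of all 14644 genes tested were called lower, 31.2% higher and 61.3% in either direction. Non-overlapping groups with NS lower were found in 33.2% of genes. The median log2 fold change was -0.55 over the 8 genes and 0.01 over all genes. No member reached an absolute log2 fold change of 1 together with the adjusted p, which 12.7% of all genes did.

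Hmgcs1, the cytosolic synthase that makes HMG-CoA, was at 196, 203 and 174 CPM in WT replicates 1 to 3, at 135, 139 and 138 CPM in NS and at 133, 154 and 130.5 CPM in MSC-EVs. All 6 rd10 libraries lay below all WT libraries, and the rd10 groups overlapped. The log2 fold change of NS against WT was -0.48 (SE 0.064, adjusted p = 4.05e-05). Of its exonic bases 12.1% are shared with Gm48342, an antisense gene.

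Idi1, which isomerizes isopentenyl diphosphate so that isoprenoid units can be joined, was at 65.6, 80.3 and 75.3 CPM in WT. In NS it was at 43.1, 44.8 and 42.7 CPM and in MSC-EVs at 33.8, 44.1 and 38.6 CPM. It showed the largest difference of the 8 genes, with a log2 fold change of NS against WT of -0.76 (SE 0.076, adjusted p = 3.71e-06). The highest rd10 library stood below the lowest WT library, WT replicate 1. Of the 50-base stretches in the Idi1 transcripts, 25.3% also occur in other genes, among them Gm13502. Its estimated counts were whole numbers in every library, so no split of reads with another gene shows in them.

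Fdft1, squalene synthase, commits isoprenoids to sterols. It was at 109, 109 and 111 CPM in WT, at 70.7, 73.9 and 75.9 CPM in NS and at 62.9, 74.6 and 68.0 CPM in MSC-EVs. The WT libraries were nearly equal and far above every rd10 library, and the log2 fold change of NS against WT was -0.58 (SE 0.053, adjusted p = 1.68e-06). Of its 50-base stretches 26.5% also occur in other genes, mainly Ctsb and Gm6781. Its estimated counts carried decimals in every library but MSC-EVs replicate 3. On the opposite strand Fdft1 shares 774 exonic bases, 18.3% of its own, with Ctsb, the gene of a lysosomal protease. Ctsb was higher in NS than in WT (log2 fold change 0.82, adjusted p = 2.15e-07), and the strand setting of the counting is not given in the sources used here.

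Sqle, squalene epoxidase, catalyses the first oxygen-dependent step. It was at 76.7, 72.3 and 78.9 CPM in WT, at 56.6, 58.3 and 62.3 CPM in NS and at 53.3, 59.3 and 53.9 CPM in MSC-EVs. Its fall was the smallest of the 8, with a log2 fold change of NS against WT of -0.37 (SE 0.06, adjusted p = 0.000228), and the groups still did not overlap. No exon of another gene in the annotation overlaps Sqle, and fewer than 0.1% of its 50-base stretches occur elsewhere.

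Lss, which folds epoxidized squalene into lanosterol, was at 45.9, 39.4 and 40.4 CPM in WT, at 28.7, 24.0 and 29.5 CPM in NS and at 37.4, 36.3 and 31.6 CPM in MSC-EVs. It was the only one of the 8 genes whose MSC-EVs libraries all lay above all NS libraries, while they stayed below all WT libraries. The log2 fold change of NS against WT was -0.61 (SE 0.092, adjusted p = 0.000111).

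Cyp51, lanosterol demethylase, was at 88.8, 85.0 and 84.5 CPM in WT, at 58.2, 52.6 and 57.5 CPM in NS and at 52.9, 62.7 and 52.3 CPM in MSC-EVs. WT stood clear of both rd10 groups, which overlapped, with MSC-EVs replicate 2 above all NS libraries. The log2 fold change of NS against WT was -0.62 (SE 0.061, adjusted p = 3.62e-06). Cyp51 shares 3.8% of its exonic bases with Akap9 on the other strand.

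Dhcr7, the reductase of the last step to cholesterol, was at 40.7, 43.8 and 38.1 CPM in WT, at 29.6, 32.6 and 30.1 CPM in NS and at 22.5, 30.6 and 23.7 CPM in MSC-EVs. The lowest values were those of MSC-EVs replicates 1 and 3. The log2 fold change of NS against WT was -0.42 (SE 0.077, adjusted p = 0.000566). On the FPKM scale it was -0.21 on log2(FPKM + 1) by limma and did not pass the test (adjusted p = 0.0737). The authors' FPKM scaling placed the median of all genes at 0.14 in that comparison, where the count scale had 0.01.

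Insig1 is no enzyme but the sterol sensor's anchor, which retains the SREBP complex in the endoplasmic reticulum and is itself a target of SREBP. It was at 107, 107 and 104 CPM in WT, at 65.1, 82.8 and 74.5 CPM in NS and at 52.9, 74.4 and 50.5 CPM in MSC-EVs. Both rd10 groups were below WT and more spread than WT. The log2 fold change of NS against WT was -0.52 (SE 0.076, adjusted p = 8.92e-05).

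**Figure D1:**
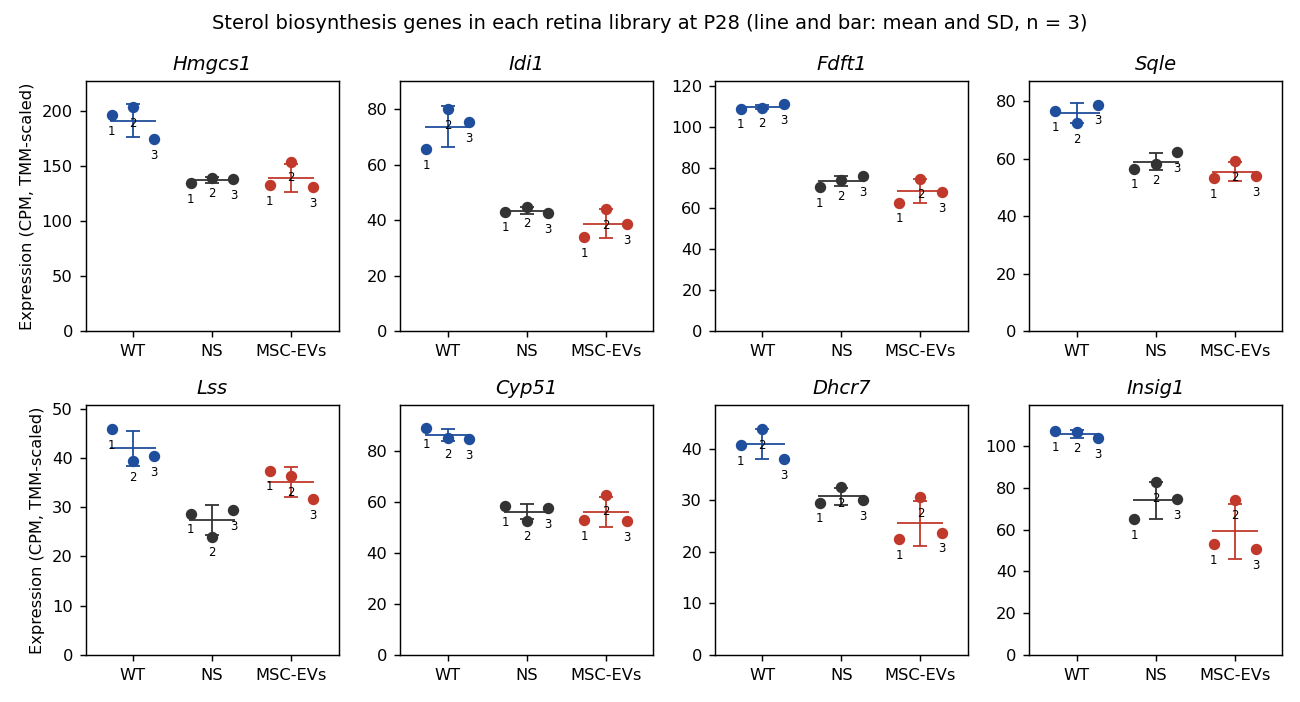
Expression (CPM, TMM-scaled, axes from 0) of each of the 8 genes in the 9 retina libraries, numbered by replicate, with the mean and SD of each group of 3. Every NS and MSC-EVs point is below every WT point, MSC-EVs replicate 2 is the highest of its group in 7 of the 8 genes, and for Lss all MSC-EVs points are above all NS points.

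Summed over the 8 genes, expression was 706 to 740 CPM in WT, 487 to 510.2 CPM in NS and 449 to 536 CPM in MSC-EVs. Over the same NS and WT libraries the summed level of 10 rod markers was 14483 to 20829 CPM in NS and 71694 to 76986 CPM in WT, a ratio of 0.24, and 10 of 10 were called lower. Müller glia markers went the other way, from 5111 to 5444 CPM in WT to 6930 to 8021 CPM in NS, with 6 of 8 called higher. Microglia and macrophage markers were at 34.9 to 37.4 CPM in WT and 234 to 296 CPM in NS, with 9 of 9 higher, and gliosis markers at 302 to 311 and 1603 to 2105 CPM, with 7 of 7 higher. All 6 endothelial and pericyte markers were higher too, at 518 to 527 CPM in NS against 300 to 315 CPM in WT. Over all genes tested 30.1% were called lower in NS and 31.2% higher. No marker of these 5 lists was at 0 in all libraries. The part of cell composition in the fall of the sterol genes was not tested, and in these bulk libraries fewer cells of a type and less RNA per cell cannot be told apart.

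Of the 13 other enzymes of the route that were tested, 9 were lower in NS than in WT, 1 was higher and 3 were not called, against 30.1% of all genes lower and 31.2% higher. Their median log2 fold change was -0.34. Fdps, which makes farnesyl diphosphate, had the largest difference of these enzymes, with 52.3 to 56.6 CPM in WT and 25.3 to 32.7 CPM in NS (log2 fold change -0.90, SE 0.088, adjusted p = 3.21e-06). Msmo1, which acts after Cyp51, was lower by a log2 fold change of -0.65 (SE 0.059, adjusted p = 1.6e-06).

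The exceptions were spread along the route. Pmvk, phosphomevalonate kinase, was higher in NS, at 28.2 to 32.3 CPM against 23.2 to 26.1 CPM in WT (log2 fold change 0.27, SE 0.082, adjusted p = 0.014). Ggps1, which turns farnesyl diphosphate to longer non-sterol chains, was at -0.11 and not called (adjusted p = 0.0813). Of the late enzymes Ebp was at 0.0027 and Lbr, which is also a nuclear envelope protein, at -0.08, neither of them called. Idi2, the second isomerase, was too low to be tested.

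**Figure D2:**
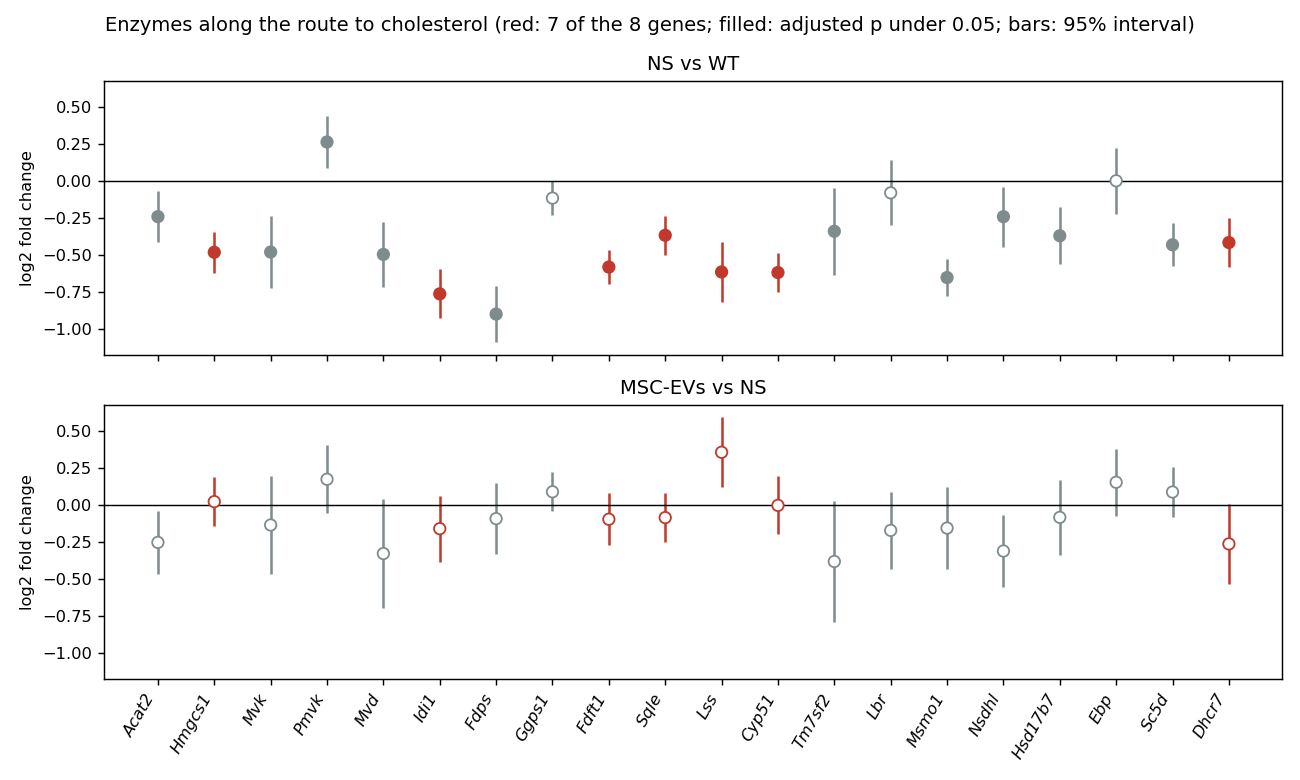
Fitted log2 fold change with its 95% interval for the 20 enzymes in the order of the route from acetyl-CoA (left) to cholesterol (right), for NS against WT (upper panel) and MSC-EVs against NS (lower panel). In the upper panel 16 enzymes are called lower and Pmvk higher; in the lower panel no enzyme is called, and Lss has the highest value.

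Of 8 tested genes that control SREBP, 3 were lower in NS than in WT and 2 higher, near the shares of 30.1% and 31.2% over all genes. The lower ones were Srebf2, which encodes SREBP2 itself (log2 fold change -0.26, adjusted p = 0.00428), Scap, its escort (-0.46, adjusted p = 4.84e-05), and Mbtps1, the first protease that releases it (-0.47, adjusted p = 2.28e-05). Insig2, the second anchor, was higher (0.22, adjusted p = 0.00635) where Insig1 was lower, and so was Marchf6 (0.22, adjusted p = 0.00389), a ubiquitin ligase that acts on Sqle protein. Srebf1, Mbtps2 and Rnf139 were not called.

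The same shares over all genes apply to the lists that follow. Among 7 genes of sterol uptake and transfer, 4 were lower in NS and 2 higher. Vldlr, the receptor of very low density lipoprotein, fell most (-0.85, adjusted p = 2.43e-07), and Stard4, Npc1 and Scarb1 were lower as well. Npc2, a lysosomal sterol carrier, rose (1.12, adjusted p = 3.02e-08), and so did Lrp8 (0.63). Of 9 fatty acid targets of SREBP1, 4 were lower and 4 higher. Acaca (-0.54) and Fasn, which make fatty acids, were on the lower side, as were Acly and Acss2, which make acetyl-CoA. The desaturases Fads2 (0.60), Fads1, Scd2 and Scd1 were on the higher side, and Elovl6 was not called.

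Genes that use or clear sterols and isoprenoids differed from one list to the next. Of 8 genes of the non-sterol isoprenoid branch 6 were lower in NS and 0 higher, led by Icmt, the methyltransferase of prenylated proteins, at 379 to 418 CPM in NS against 830 to 859 CPM in WT (log2 fold change -1.10, adjusted p = 2.05e-08). Of 5 tested genes of sterol turnover all 5 were higher: Cyp46a1 (0.41), Cyp27a1 (0.74), Cyp7b1 (0.40), Soat1 (0.29) and Ch25h. Ch25h, cholesterol 25-hydroxylase, had 4, 0 and 1 estimated counts in WT and 72, 76 and 75 in NS, so no fold is given. Among 6 LXR targets and receptors, Abca1, the cholesterol exporter, was at 39.6 to 46.7 CPM in WT and 164 to 178 CPM in NS (log2 fold change 2.01, adjusted p = 1.23e-09). Lpcat3 was also higher (1.21), whereas Abcg1, Mylip and Nr1h2 were lower. Over the 9 lists 29 of 56 tested genes were lower and 16 higher, against 30.1% and 31.2% of all genes, with a median log2 fold change of -0.23 against 0.01.

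**Figure D3:**
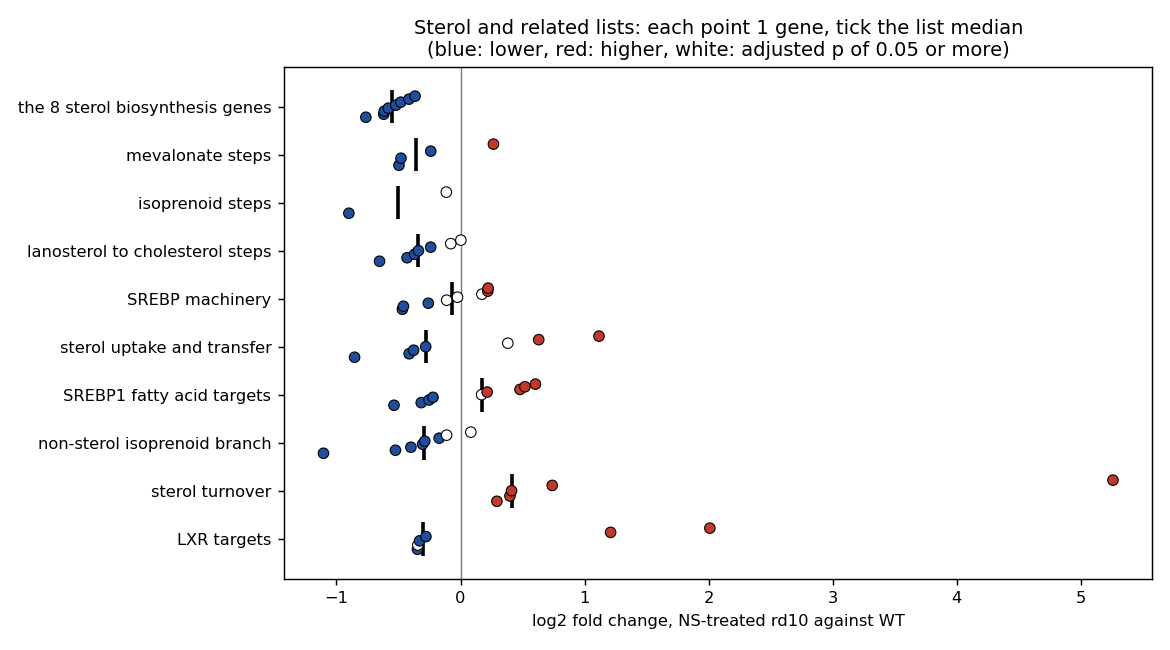
Fitted log2 fold change of NS against WT for the 8 genes and for 9 lists of related genes, each point 1 gene and each tick the median of the list. The 8 genes all lie between -0.76 and -0.37, whereas sterol turnover lies to the right of 0 throughout. The point at 5.26 is Ch25h, whose value depends on the prior count of the fit because WT had 0 to 4 counts.

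The second comparison asked whether the vesicles changed these genes in rd10 retinas. None of the 8 genes was called between MSC-EVs and NS by edgeR at an adjusted p under 0.05, when 172 of 14765 genes, 1.16%, were, 0.914% higher and 0.251% lower. At an unadjusted p under 0.05 the only one was Lss, against 20.2% of all genes. DESeq2's Wald test and the exact test of edgeR, which called 6.98% and 5.24% of all genes, also called 0 of the 8. Intervals of 95% for the log2 fold change ran from -0.14 to 0.19 for Hmgcs1, -0.20 to 0.20 for Cyp51, -0.25 to 0.08 for Sqle, -0.27 to 0.08 for Fdft1 and -0.38 to 0.06 for Idi1. They were wider for Dhcr7 (-0.53 to 0.01) and Insig1 (-0.70 to 0.06).

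Lss, at 31.6 to 37.4 CPM in MSC-EVs and 24.0 to 29.5 CPM in NS, had a log2 fold change of 0.36 (SE 0.11, 95% interval 0.12 to 0.59, adjusted p = 0.109 by edgeR). Groups that did not overlap, with MSC-EVs higher, were found in 12.8% of all genes, and 13.5% had MSC-EVs lower. Over 20 alternative settings its value was 0.22 to 0.43 and its adjusted p 0.0528 to 0.447. As a share of the summed CPM of the 8 genes, Lss was 6.77% to 8.34% in MSC-EVs, 4.72% to 5.90% in NS and 5.33% to 6.30% in WT. In FPKM it was at 9.17, 8.05 and 7.31 in MSC-EVs, at 6.37, 5.39 and 6.65 in NS and at 9.08, 9.28 and 7.97 in WT, so that MSC-EVs overlapped WT on this scale. The ratio of count to FPKM, which follows the transcript length the authors' program used, was 3.96 in WT replicate 2 and 4.23 in MSC-EVs replicate 1 against 4.45 to 4.67 in the other libraries. The part of this difference in the Lss values was not tested.

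The third comparison, MSC-EVs against WT, shares its libraries with the other 2. All 8 genes were again lower, against 27.2% of 14623 genes called lower, 28.3% higher and 55.5% in either direction. None of the 8 overlapped, against 33.3% of all genes not overlapping with MSC-EVs lower. With the fold limit 0 of the 8 were called, against 12.2%. The log2 fold changes were -0.92 for Idi1, -0.84 for Insig1, -0.67 for Fdft1 and for Dhcr7, -0.62 for Cyp51, -0.45 for Hmgcs1 and for Sqle, and -0.26 for Lss. Adjusted p ranged from 3.31e-05 for Fdft1 to 0.0345 for Lss. The Lss value was the least secure of them: it was -0.09 (adjusted p = 0.444) on log2(FPKM + 1), -0.19 (adjusted p = 0.144) without WT replicate 1, -0.28 (adjusted p = 0.0609) without WT replicate 3 and -0.18 (adjusted p = 0.0895) without MSC-EVs replicate 3.

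**Figure D4:**
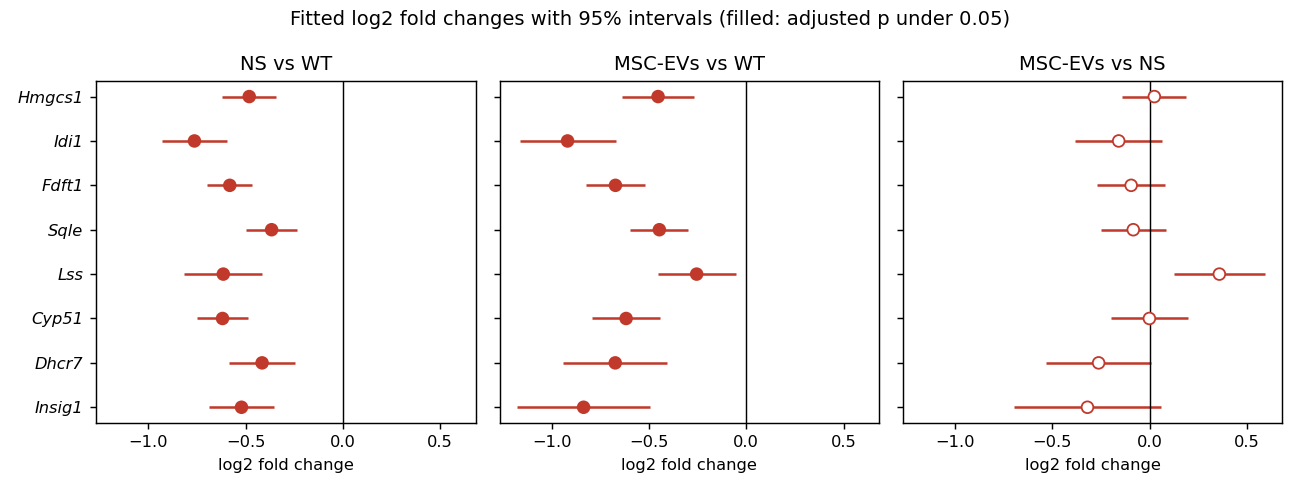
Fitted log2 fold changes of the 8 genes with 95% intervals in the 3 comparisons, which share libraries; filled points have an adjusted p under 0.05. All 8 are called lower in both rd10 groups against WT, and none is called between MSC-EVs and NS, where Lss at 0.36 is the only interval that lies above 0.

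The MSC-EVs libraries were not alike. MSC-EVs replicate 2 was the highest of its group in 7 of the 8 genes, at 74.4 CPM for Insig1 against 52.9 and 50.5 CPM in replicates 1 and 3, and at 30.6 CPM for Dhcr7 against 22.5 and 23.7 CPM. The mean standardised deviation from the group mean over the 8 genes was 1.41 in this library, -0.77 in replicate 1 and -0.64 in replicate 3, and it was -0.26 to 0.32 in the WT and NS libraries. With all libraries Insig1 and Dhcr7 were not called between MSC-EVs and NS (adjusted p = 0.321 and 0.258 by edgeR). Without MSC-EVs replicate 2 they were called lower in MSC-EVs. The log2 fold changes were then -0.51 (adjusted p = 0.0246) and -0.40 (adjusted p = 0.0464). That fit called 676 genes in all, 4.53% of those tested. The library left out was the highest of its group for both genes, so its removal lowers their MSC-EVs means by construction. These 2 calls are therefore no evidence of a fall.

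**Figure D5:**
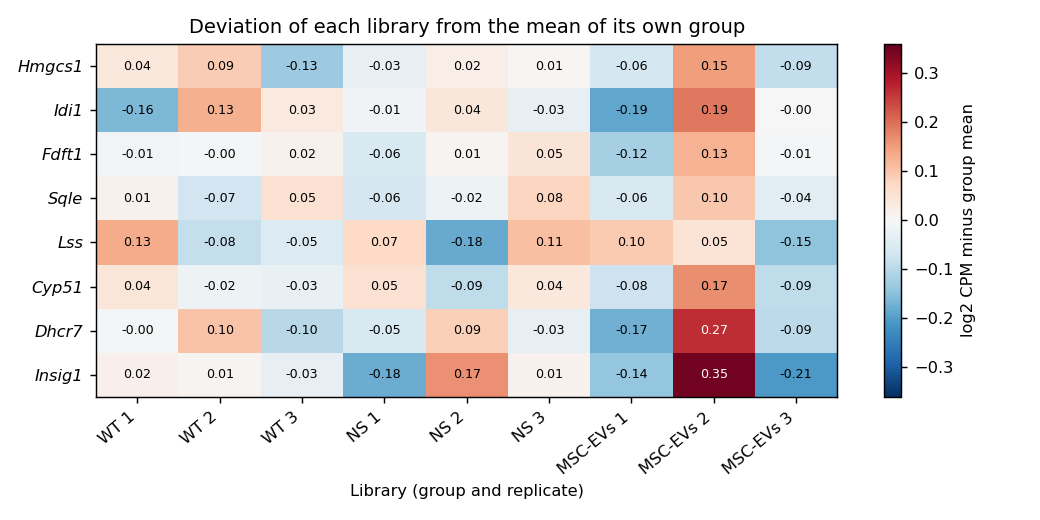
Difference of log2 CPM from the mean of its own group, for the 8 genes (rows) in the 9 libraries (columns); red is above and blue below the group mean. MSC-EVs replicate 2 is above its group mean for all 8 genes, most for Insig1 at 0.35, and MSC-EVs replicate 1 is below it for all but Lss.

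Within groups, the deviations of each gene were compared with those of the other 7 over the 9 libraries. Pearson's r with their mean was 0.52 to 0.83 for 7 genes and 0.06 for Lss. Without MSC-EVs replicate 2 these values fell to -0.39 to 0.33, so the likeness between the genes within groups rested on that library. The 10 genes outside the 8 whose deviations were most like the mean of the 8, of 14882 genes, were Efhd2, Cry2, Zfpm2, Srxn1, Micall1, Ptp4a1, Mcc, Tiparp, Gramd4 and Usp22, with r from 0.96 to 0.99. Without MSC-EVs replicate 2, over 8 libraries, r was 0.96 for Zfpm2, 0.82 for Efhd2 and 0.40 to 0.78 for the other 8. Their ranks then ran from 7 for Zfpm2 and 274 for Efhd2 to 2758 for Usp22, so most of these r values leaned on that library. Picked as the highest of 14882, they support nothing by themselves. Among the 13 other tested enzymes of the route r ran from -0.73 for Tm7sf2 to 0.93 for Msmo1, and without that library these 2 were at 0.58 and 0.47.

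Of the 56 tested genes of the 9 related lists none was called between MSC-EVs and NS by edgeR's quasi-likelihood test, and 13 had an unadjusted p under 0.05, near the 20.2% of all genes. The lowest adjusted p values were those of Cyp27a1, sterol 27-hydroxylase (log2 fold change -0.63, adjusted p = 0.0521), Icmt (0.42, adjusted p = 0.0596), Pggt1b, a prenyltransferase subunit (0.31, adjusted p = 0.0875) and Acaca, acetyl-CoA carboxylase (0.35, adjusted p = 0.0948). Cyp27a1 was at 6.82, 6.66 and 7.46 CPM in MSC-EVs, at 9.97, 11.3 and 11.4 CPM in NS and at 5.38, 7.39 and 6.71 CPM in WT. The DESeq2 Wald test called these 4 of the 56, with adjusted p of 0.00674, 0.000976, 0.0362 and 0.0196 in the same order, but it called 930 genes in all, 6.98% of those tested, which is near the share of the lists. Of the marker lists the rod genes had 0 of 10 called, with 15126 to 21073 CPM in MSC-EVs. The gliosis genes had 2 of 7 called higher, Stat3 (0.54) and Cd44 (0.62), and the bipolar genes 1 of 8 lower. No other marker list had a call between MSC-EVs and NS. Over all genes tested 1.16% were called, 0.914% higher and 0.251% lower. Against WT, 25 of the 56 genes were lower in MSC-EVs and 13 higher, against 27.2% and 28.3% of all genes.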

How the data were processed

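RNA was enriched with oligo(dT) beads and sequenced by the submitters, whose processing notes name fastp, Bowtie2, HISAT2, StringTie 1.3.1 and RSEM; the genome build, annotation and strand setting behind the table are not given in the sources used here. The authors deposited estimated counts and FPKM for every gene in every library. The estimated counts are not scaled to depth, and 9.16% to 11.7% of genes per library carried decimals, so they were rounded to whole numbers. The FPKM values were scaled by the authors for transcript length and depth, and were used for levels between genes and as an alternative.

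Each pair of groups was fitted alone in edgeR 4.0.16 (R 4.3.3): filterByExpr, TMM, robust glmQLFit and glmQLFTest, with Benjamini-Hochberg adjustment over all genes tested and a call at an adjusted p under 0.05. A second rule adds a fold limit of 1 on the log2 scale, in either direction. SE is the log2 fold change divided by the root of its F. Alternatives used DESeq2 1.42.0 and limma 3.58.1. The fitting was also run on simulated data, and nothing reported here rests on that run. Libraries of a group differed by more than counting noise (chi-square per degree of freedom 4.1 to 31.3), so none was treated as a library deposited more than once; this does not show that they came from separate animals. The biological coefficient of variation was 7.97% for NS against WT, 12.4% for MSC-EVs against NS and 10.8% for MSC-EVs against WT.

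The 8 genes, the 9 lists of related genes and the 16 marker lists were chosen with earlier results of these data known, and support nothing by being chosen. Each of the 8 genes is named in each comparison; of the other lists the called genes, at most the 4 with the smallest p described more fully; and the 10 genes of highest r. Genes of the lists that were not called, and Tm7sf2, were named after their values were seen. Positions and overlaps are from GENCODE M21 on GRCm38, and promoter windows from RefSeq on GRCm38.p6. No protein sequence was used here. Some genes of the lists as first drawn up are not reported here.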

Additional observations from a re-analysis of the deposited data

How the results depend on the processing

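The 8 genes stayed lower in both rd10 groups than in WT under every alternative run, with log2 fold changes of -0.84 to -0.18 for NS against WT and -1.06 to -0.09 for MSC-EVs against WT. Apart from the fold limit, calls were lost for Dhcr7 in NS against WT on log2(FPKM + 1) and log2(FPKM + 0.1) (-0.21 and -0.22, adjusted p = 0.0737 and 0.0708), and for Lss in MSC-EVs against WT on both FPKM scales (-0.09 and -0.10), without WT replicate 1, WT replicate 3 or MSC-EVs replicate 3, and at an adjusted p under 0.01. The FPKM scales placed the median of all genes at 0.14 and 0.17 for NS against WT and at 0.12 and 0.15 for MSC-EVs against WT, and the cause was not tested. With the fold limit of 1, 0 of the 8 genes and 5 and 3 genes of the 9 lists were called in these comparisons. Between MSC-EVs and NS, leaving out 1 library gave 0 to 2 calls among the 8 genes and 0 to 4 in the lists, the highest without MSC-EVs replicate 2 (Acaca, Srebf1, Cyp27a1 and Icmt); all genes called then ranged from 0 to 676. The lists gave 1 call with upper-quartile factors (1.04% of all genes called) and with limma on log2(FPKM + 1) (1.2%) and log2(FPKM + 0.1) (1.38%). With no filter they gave 2 (1.25%). They gave 4 each with the DESeq2 Wald test, the edgeR exact test and all 9 libraries in one fit. Those settings called 930, 774 and 1026 genes in all (6.98%, 5.24% and 6.88%, near the share of the lists). With Y-linked expression fitted as a term, 3 genes of the lists (Abca1, Acaca and Icmt) and 0 of the 8 genes were called. That fit called 115 of 14765 genes, 0.779%. Leaving out the libraries that hold Y-linked counts leaves 1 MSC-EVs library, so only effect sizes are given. The log2 fold changes were then -0.50 for Abca1, 0.53 for Acaca and 0.60 for Icmt. Hmgcs1 and Cyp51, both near 0 and uncalled, changed sign: Hmgcs1 was -0.011 with upper-quartile factors, -0.060 with the Y-linked term, -0.061 without the libraries that hold Y-linked counts and -0.052 to 0.065 with 1 library left out, lowest without MSC-EVs replicate 2. Cyp51 was -0.087 to 0.043 with 1 library left out, and above 0 without NS replicate 1, NS replicate 3, MSC-EVs replicate 1 or MSC-EVs replicate 3.

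Replicate numbers are shared between groups, but the labels tie no numbers together. By the paper, rd10 littermates received either vesicles or saline, and it does not say which libraries share a litter. Deviations of same-numbered MSC-EVs and NS libraries had r = 0.08, 0.21 and 0.27. Each MSC-EVs library correlated best with the NS library of its own number. For NS with WT, whose mice came from another source, r was 0.07, -0.08 and -0.06. For MSC-EVs with WT it was 0.08, 0.03 and 0.02, and MSC-EVs replicates 1 and 2 again correlated best with their own number. Whether libraries of 1 number share a litter was not tested. With the replicate block, 403 genes in place of 172 were called between MSC-EVs and NS, 2 of them in the lists (Srebf1 and Cyp27a1) and 0 among the 8 genes, and all 8 were still called lower against WT in both rd10 groups.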

Other observations

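Of the 20 tested enzymes of the route, 14 had a negative and 6 a positive log2 fold change in MSC-EVs against NS. Their median was -0.09, against -0.0016 over all genes, and 0 were called, against 1.16% of all genes. These signs were not tested as a set. Ch25h, which makes 25-hydroxycholesterol, had 70, 184 and 78 estimated counts in MSC-EVs replicates 1 to 3, which is 2.93, 7.86 and 1.21 CPM; its highest value was in replicate 2, the library with the highest values of Insig1 and Dhcr7 in its group. Abca1 was at 194, 198 and 120.2 CPM in the same libraries and at 164 to 178 CPM in NS.

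Retinal pigment epithelium markers varied widely within groups, at 74.8 to 304 CPM in NS, 91.8 to 239 CPM in MSC-EVs and 61.2 to 110.4 CPM in WT, and lens markers at 13.1 to 106 CPM in MSC-EVs; 4 of 9 epithelium markers were called higher in NS than in WT and 0 of 8 lens markers. Of the other lists in NS against WT, cone genes had 3 of 8 lower and 1 higher, and bipolar genes 4 of 8 higher and 1 lower. Amacrine genes had 6 of 8, horizontal genes 3 of 4, ganglion genes 5 of 7 and astrocyte genes 2 of 5 higher. Erythrocyte genes had 1 of 5 lower. Over all genes tested 31.2% were called higher and 30.1% lower, and the cone, astrocyte and epithelium counts are near these shares. Mog, Mag and Mobp, which mark oligodendrocytes, were too low to be tested.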
